A study of Mus musculus with 6 samples.

Results

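The 37 genes described here serve antioxidant defence and were followed in mouse cornea, out of 22007 gene symbols in the count tables. They were taken by name as the regulators of the transcription factor NRF2, the glutathione, thioredoxin and peroxiredoxin enzymes, the superoxide dismutases and catalase, the ferritins and the metallothioneins. All 37 were found and all 37 passed the filter on low counts. The tissue came from male C57BL/6J mice. In the OFBI group (open-field blast injury) awake animals were exposed once to the detonation of 350 g of C-4 at a distance of 3 m, and the corneas were taken 12 months later. The Naive group carries the treatment label Naïve and the same 12-month time. Each group had 3 libraries, each a pool of corneas, so differences between single animals were averaged within a library. All 6 libraries carried batch number 4, and no age at exposure is given.

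NRF2, the product of Nfe2l2, is a transcription factor that KEAP1 holds in the cytoplasm and hands to a ubiquitin ligase. Oxidants and electrophiles modify KEAP1, NRF2 then reaches the nucleus, pairs with a small MAF protein and binds antioxidant response elements near genes for glutathione synthesis, quinone reduction and thioredoxin cycling. The cornea is exposed to light and oxygen, and its epithelium is known for high levels of antioxidant enzymes.

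The libraries differed in depth along the group line. The Naive libraries held 41971752 to 47809779 estimated counts and the OFBI libraries 1173472 to 3410476, a 16.7-fold difference between the group means. About 4 counts stand for 1 sequenced fragment, as inferred from the values, and 29 of the 37 genes had fewer than 100 counts in at least 1 OFBI library. Depth therefore cannot be told apart from group, and OFBI values carry more counting error. Their coefficient of variation between libraries had a median of 33.7% over the 37 genes in OFBI and of 10.1% in Naive corneas. Levels are given in CPM (counts relative to library size, scaled by TMM) with their SD, changes as log2 FC (log2 fold change of OFBI over Naive) ± SE, and p-values come from edgeR's quasi-likelihood test with Benjamini-Hochberg adjustment over all 13941 genes tested, with a threshold of 0.05.

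Nfe2l2 itself, Nqo1, Prdx2 and both metallothionein genes fell after OFBI, and Gclm rose. Thus 1 of the 37 genes was called higher and 5 were called lower, or 2.70% and 13.5%. Of all genes tested, 8.41% were called higher and 10.4% lower, 18.8% in either direction, so the share called higher lay below the background and the share called lower lay near it. At an unadjusted p below 0.05, 4 of the 37 genes were higher and 8 lower, where 14.4% and 18.5% of all genes were. Where no tool is named, called means past edgeR's threshold with all 6 libraries. DESeq2 on all 6 libraries called 3 of the 37 genes higher and 8 lower, where it called 12.7% and 12.0% of the genes it gave an adjusted p, and added Prdx5 and Sod1 to the higher and Hmox2, Gstm5 and Mgst1 to the lower genes. The median log2 FC of the 37 genes was -0.25 and that of all genes tested was -0.20. Groups did not overlap for 3 genes with OFBI above Naive, where 16.4% of all genes tested behaved so, and for 10 genes with OFBI below Naive, where the background was 29.9%. The 31 genes that were not called did not pass the test, which at this depth does not show that they were equal.

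**Figure D1:**
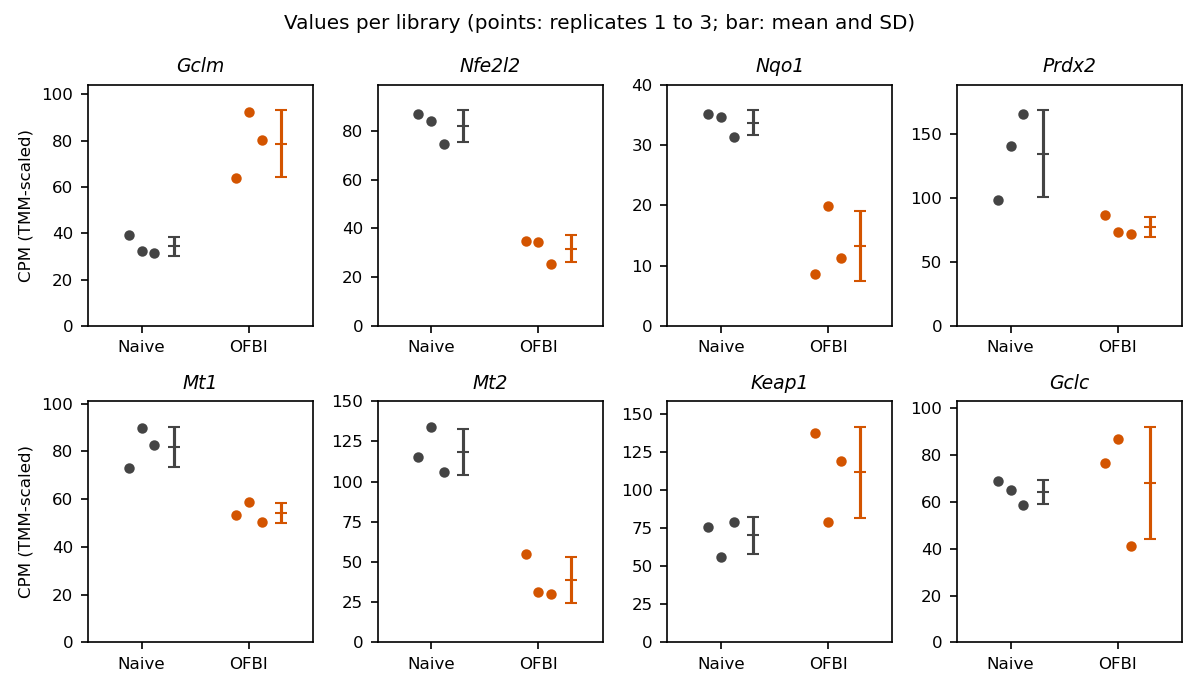
CPM in each library (vertical axes start at 0) for the 6 genes called and for Keap1 and Gclc, with Naive in dark grey and OFBI in orange. Points are the 3 libraries of a group and the bar is their mean and SD. For Gclm all OFBI points lie above all Naive points, for Nfe2l2, Nqo1, Prdx2, Mt1 and Mt2 all lie below, and for Keap1 and Gclc the groups overlap.

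Among the regulators, Nfe2l2 (chromosome 2, 75675513 to 75704641, minus strand, GRCm38) had 87.0, 84.1 and 74.7 CPM in Naive replicates 1, 2 and 3 and 34.9, 34.6 and 25.3 CPM in OFBI replicates 1, 2 and 3. All OFBI libraries lay below all Naive libraries, and the mean went from 81.9 ± 6.41 to 31.6 ± 5.49 CPM (SD, n = 3), a 2.56-fold fall. The log2 FC was -1.35 ± 0.19 (edgeR adjusted p = 0.0107). Keap1, which encodes the adaptor that marks NRF2 for degradation, had 75.7, 56.4 and 78.8 CPM in the Naive and 137, 78.8 and 119 CPM in the OFBI libraries. OFBI replicate 2 was level with Naive replicate 3, and the log2 FC of 0.66 ± 0.25 did not pass (edgeR adjusted p = 0.110). Without OFBI replicate 2 it was 0.83 and passed (edgeR adjusted p = 0.0417). Sqstm1, the gene of the autophagy receptor p62 that competes for KEAP1, had 198 ± 14.9 and 234 ± 50.01 CPM (SD, n = 3) in Naive and OFBI corneas and a log2 FC of 0.24 ± 0.19.

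A ratio of 2 genes within a library does not depend on the scaling of that library. It can still differ between libraries through GC content, which is 58.0% in the Keap1 and 46.8% in the Nfe2l2 transcript. That part was not tested for the ratios. The ratio of Keap1 to Nfe2l2 counts was 0.870, 0.670 and 1.05 in the Naive and 3.93, 2.28 and 4.70 in the OFBI libraries. In log2 units the OFBI mean was 2.03 above the Naive mean, with a range of 1.81 to 2.34 when each library was left out in turn, and the groups did not overlap. An exact two-sided permutation test gave p = 0.1, the smallest value that 3 against 3 libraries allow, and 0.1 after adjustment over the 4 pairs examined. These pairs were chosen after their values were seen.

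Upstream sequences of 4 genes are shown because the core of the antioxidant response element, TGACNNNGC, and the core of the metal response element, TGCGCNC or TGCACNC, are the sites by which NRF2 and the metal sensor MTF1 are known to act on such genes. The windows cover the 250 bases before the transcript start given by RefSeq (build GRCm38.p6), 5′ to 3′ on the gene's strand, and capitals mark the antioxidant core in Nfe2l2 and Gclm and the metal cores in Mt1 and Mt2, on either strand.
Nfe2l2 upstream window: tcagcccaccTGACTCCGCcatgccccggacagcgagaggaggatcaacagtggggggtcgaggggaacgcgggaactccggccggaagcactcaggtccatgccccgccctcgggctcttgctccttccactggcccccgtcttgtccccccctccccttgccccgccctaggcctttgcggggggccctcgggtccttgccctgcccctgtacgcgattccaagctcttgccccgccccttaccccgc
Gclm upstream window: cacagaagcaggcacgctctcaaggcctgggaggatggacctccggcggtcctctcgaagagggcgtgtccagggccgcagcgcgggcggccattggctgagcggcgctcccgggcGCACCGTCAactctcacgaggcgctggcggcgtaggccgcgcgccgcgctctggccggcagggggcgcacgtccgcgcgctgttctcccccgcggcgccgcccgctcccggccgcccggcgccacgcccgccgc
Mt1 upstream window: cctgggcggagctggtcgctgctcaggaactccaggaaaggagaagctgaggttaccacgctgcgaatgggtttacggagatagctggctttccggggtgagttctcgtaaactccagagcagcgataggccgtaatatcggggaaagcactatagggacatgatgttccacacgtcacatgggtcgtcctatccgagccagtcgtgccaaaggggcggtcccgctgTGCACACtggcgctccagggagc
Mt2 upstream window: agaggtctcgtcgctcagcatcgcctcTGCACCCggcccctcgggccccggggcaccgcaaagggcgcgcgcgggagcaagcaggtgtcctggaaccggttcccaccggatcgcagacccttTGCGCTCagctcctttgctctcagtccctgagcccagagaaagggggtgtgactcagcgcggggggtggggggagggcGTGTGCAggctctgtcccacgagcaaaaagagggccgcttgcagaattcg
The windows are chr2:75704664-75704913 (minus strand), chr3:122245307-122245556, chr8:94178839-94179088 and chr8:94172368-94172617 (plus strand). In the Nfe2l2 window the first base of the response element core lies 240 bases before the start, and in the Gclm window the match is on the opposite strand at 134 bases. Within these windows Mt1 held 1 match to the metal element cores and Mt2 held 3. The longest Mt1 transcript has 1085 bases against a median of 633, and the Mt1 window ends at the start of the annotated gene. Elements after the starts used were not searched, so these numbers do not compare the Mt1 and Mt2 promoters. The Gclm window also held a metal core and the Mt2 window an antioxidant core, both left in lower case. The RefSeq start used for Mt2 lies upstream of the GENCODE start of the gene. RefSeq windows were matched by symbol for 31 of the 37 genes. Of these, 8 genes held the antioxidant core, or 25.8%, against 11.5% of all genes with a window, and the 8 were Nfe2l2, Gclm, Gstm5, Mgst1, Txnrd1, Prdx1, Sod1 and Mt2. The metal cores were in 7 of the 31, or 22.6%, against 23.8% of all genes. The 8 genes with the antioxidant core include Gclm, which rose, and Nfe2l2 and Mt2, which fell. A match is a string of letters and not evidence of binding in these corneas.

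Of the quinone and haem enzymes, 1 of 3 genes fell and none rose. Nqo1 (chromosome 8, 107388225 to 107403206), a quinone reductase that is widely used as a readout of NRF2, had 35.1, 34.7 and 31.4 CPM in the Naive and 8.66, 19.8 and 11.2 CPM in the OFBI libraries. The groups did not overlap, and the level fell 2.51-fold, with a log2 FC of -1.33 ± 0.35 (edgeR adjusted p = 0.0415). Its OFBI counts were 28, 62 and 12. Hmox2, the constitutive haem oxygenase, had 34.0, 34.3 and 38.3 CPM in the Naive and 21.02, 22.7 and 26.2 CPM in the OFBI libraries, without overlap, and a log2 FC of -0.62 ± 0.22 that did not pass (edgeR adjusted p = 0.0948). It passed without OFBI replicate 3 at -0.71 (edgeR adjusted p = 0.0312), and DESeq2 on all libraries called it (adjusted p = 0.0127). Of all stretches of 75 bases along the Hmox2 transcript (75-base windows), 45.4% also occur, on either strand, in transcripts of Cdip1, a gene that overlaps it on the opposite strand, so reads there could be counted for either gene. Hmox1, the inducible enzyme, was low in both groups, with 4.90, 3.51 and 3.83 CPM in the Naive and 0, 4.16 and 5.61 CPM in the OFBI libraries, and no difference was detectable at this depth.

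Glutathione synthesis starts with glutamate-cysteine ligase, whose catalytic subunit is encoded by Gclc and whose modifier subunit is encoded by Gclm. Gclm (chromosome 3, 122245557 to 122270732) had 39.2, 32.4 and 31.6 CPM in the Naive and 63.7, 92.2 and 80.4 CPM in the OFBI libraries. The annotation places Gm17494 on the opposite strand and Gm6061 on the same strand within it. Every OFBI library lay above every Naive library, and the level rose 2.29-fold, from 34.4 ± 4.17 to 78.8 ± 14.3 CPM (SD, n = 3), with a log2 FC of 1.19 ± 0.21 (edgeR adjusted p = 0.0167). Gclc had 69.1, 65.3 and 59.0 CPM in the Naive and 76.7, 86.8 and 41.2 CPM in the OFBI libraries and a log2 FC of 0.10 ± 0.27. The ratio of Gclm to Gclc counts was 0.567, 0.496 and 0.536 in the Naive and 0.831, 1.06 and 1.95 in the OFBI libraries, again without overlap (exact permutation p = 0.1, the smallest possible). Gss, which encodes glutathione synthetase, had 53.6, 56.3 and 60.6 CPM in the Naive and 38.3, 56.0 and 22.4 CPM in the OFBI libraries, with a log2 FC of -0.51 ± 0.31 (edgeR adjusted p = 0.301). Gsr, the reductase that regenerates glutathione, had 54.7 ± 0.692 CPM in Naive and 46.2 ± 2.03 CPM in OFBI corneas (SD, n = 3), the tightest values of the group. Slc7a11, the cystine importer that supplies the pathway, was low throughout, with 4.27 ± 1.22 and 3.05 ± 2.78 CPM (SD, n = 3), and was at 0 in OFBI replicate 3.

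**Figure D2:**
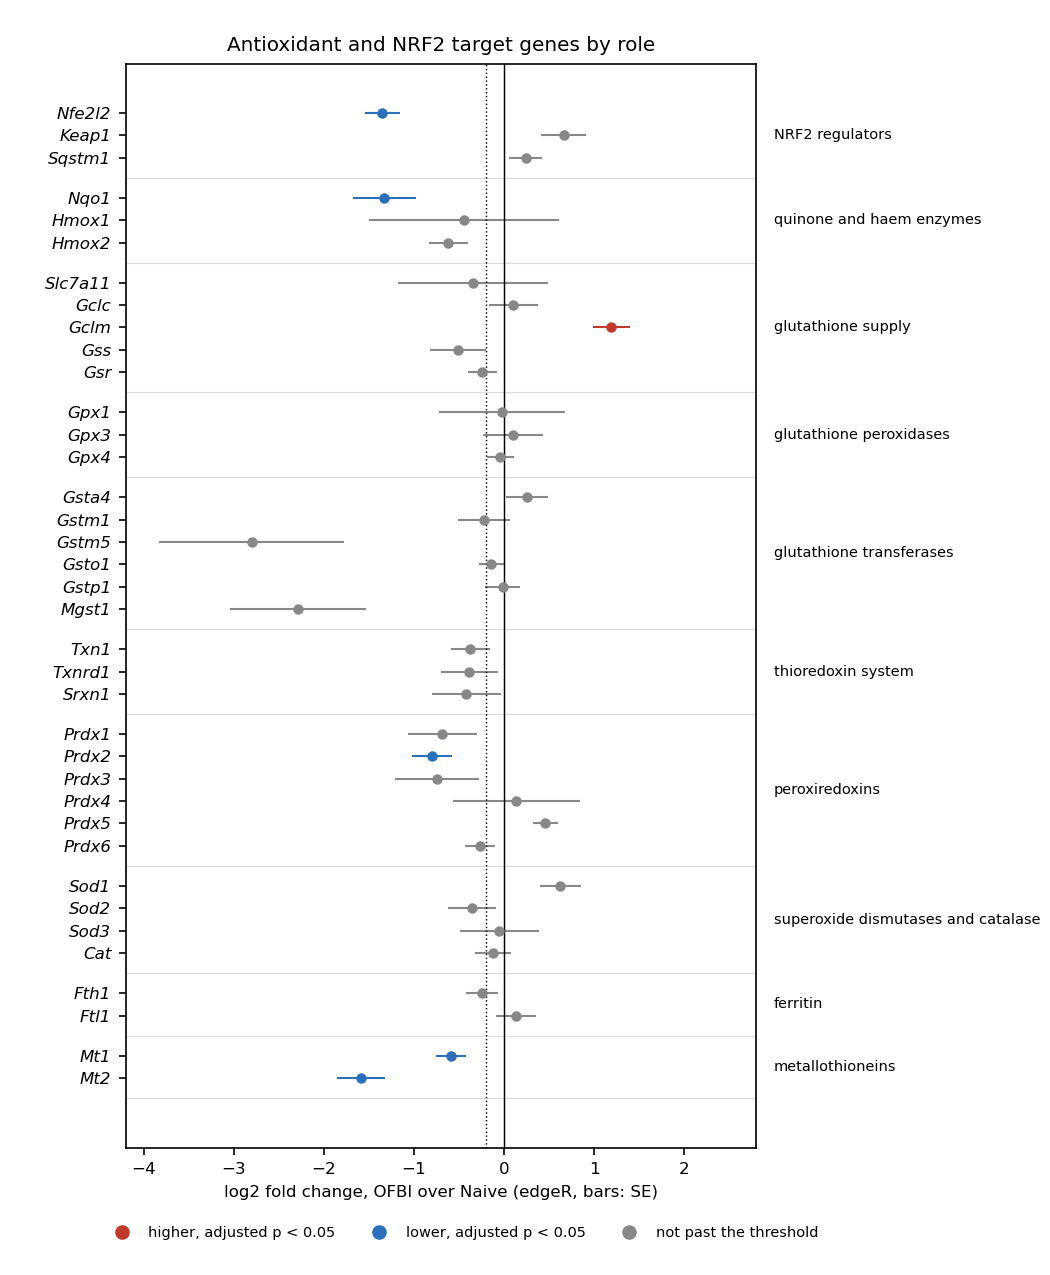
Log2 fold change of OFBI over Naive for the 37 genes by role (points, edgeR estimate, bars SE), with a solid line at 0 and a dotted line at the median of all genes tested. Gclm in red is the gene called higher, and Nfe2l2, Nqo1, Prdx2, Mt1 and Mt2 in blue are the genes called lower. The bars of Gstm5, Hmox1, Mgst1 and Slc7a11, which had few OFBI counts, are among the longest.

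None of the 3 glutathione peroxidase genes, whose products reduce peroxides with glutathione, was called by edgeR. Gpx4, which protects membranes from lipid peroxides, had 92.5, 88.3 and 80.5 CPM in the Naive and 92.4, 78.1 and 83.2 CPM in the OFBI libraries, a log2 FC of -0.04 ± 0.15. Gpx4 shares 55.3% of its 75-base windows with the pseudogene Gpx4-ps2. Gpx3, the secreted form, had 58.6, 55.5 and 72.3 CPM in the Naive and 102, 43.5 and 52.4 CPM in the OFBI libraries. Gpx1 was singled out after its values were seen. It had 182, 228 and 244 CPM in the Naive libraries and 290, 30.7 and 332 CPM in OFBI replicates 1, 2 and 3, so OFBI replicate 2 alone lay far below the other libraries. Its log2 FC was -0.02 ± 0.70, and without OFBI replicate 2 it was 0.46 with edgeR (adjusted p = 0.106) and 0.51 with DESeq2, which called it (adjusted p = 0.0351).

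Glutathione transferases, which couple glutathione to electrophiles, held both the most abundant and some of the least abundant members. Gsto1 had 5078, 5056 and 4980 CPM in the Naive and 4865, 5081 and 3761 CPM in the OFBI libraries, and Gsta4, which clears the lipid peroxidation product 4-hydroxynonenal, had 2140 ± 45.4 and 2547 ± 860 CPM (SD, n = 3). Per kilobase of transcript, Gsto1 and Gsta4 ranked first and second of the 37 genes in both groups, with 6434 and 2488 CPM per kilobase in Naive corneas, and Fth1 and Prdx5 followed. At the other end, Mgst1, a membrane-bound transferase, had 6.34, 7.61 and 7.58 CPM in the Naive libraries and 2.47, 1.28 and 0 CPM in the OFBI libraries. Its 12 OFBI counts correspond to about 3 fragments, and the Naive level was 4.42 times the OFBI level with an exact 95% interval of 1.49 to 21.6 for counting error only. Gstm5 had 7.07, 9.49 and 10.7 CPM in the Naive and 0, 1.28 and 3.74 CPM in the OFBI libraries, from 8 OFBI counts, and the ratio was 8.37 with an interval of 2.299 to 69.4. For both genes the groups did not overlap, and neither passed the test (edgeR adjusted p = 0.0773 and 0.105). Mgst1 passed without OFBI replicate 1 or 3 (edgeR adjusted p = 0.0482 and 0.0238), and Gstm5 without OFBI replicate 3, at -3.85 (edgeR adjusted p = 0.0201). DESeq2 on all libraries called both lower (adjusted p = 0.00580 and 0.0317). Gstm1 and Gstp1 had log2 FCs of -0.22 ± 0.29 and -0.01 ± 0.19, and Gstp1 shares 57.7% of its windows with its near copy Gstp2.

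**Figure D3:**
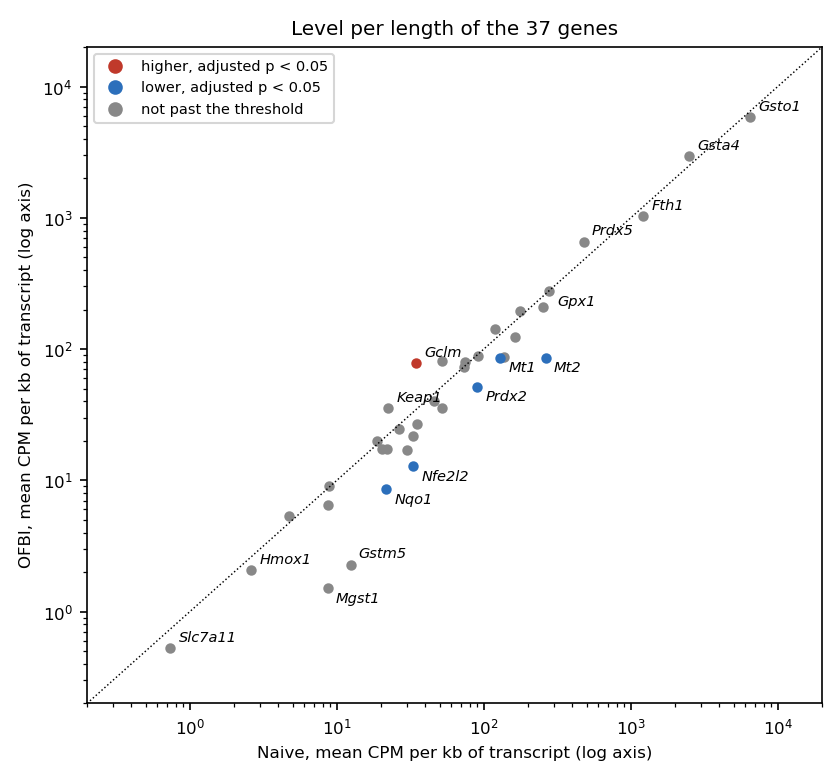
Mean CPM per kilobase of transcript in Naive (horizontal) and OFBI corneas (vertical), both axes logarithmic, 1 point per gene, with a dotted line of equality. Gsto1 and Gsta4 lie at the upper end on or near the line, and Mgst1 and Gstm5 lie below it at the lower end.

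The thioredoxin system reduces protein disulfides and recycles peroxiredoxins, and none of its 3 genes was called by edgeR with all libraries. Txn1, thioredoxin, had 158, 174 and 181 CPM in the Naive and 134, 167 and 91.7 CPM in the OFBI libraries, a log2 FC of -0.37 ± 0.22. Txnrd1, which encodes the cytosolic thioredoxin reductase, had 68.3, 73.0 and 77.4 CPM in the Naive and 41.1, 41.9 and 88.9 CPM in the OFBI libraries. OFBI replicates 1 and 2 lay below all Naive libraries and replicate 3 above them. Its log2 FC was -0.39 (edgeR adjusted p = 0.440), and without OFBI replicate 3 it was -0.82 and passed (edgeR adjusted p = 0.0122). Srxn1, sulfiredoxin, which repairs overoxidized peroxiredoxins, had 24.3 ± 0.167 and 18.4 ± 8.03 CPM (SD, n = 3).

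The peroxiredoxins, thiol peroxidases that remove hydrogen peroxide, had 1 of 6 genes called lower and none called higher by edgeR. Prdx2 (chromosome 8, 84969587 to 84974834) had 98.6, 141 and 165 CPM in the Naive and 86.6, 73.3 and 72.02 CPM in the OFBI libraries, without overlap, and a log2 FC of -0.80 ± 0.22 (edgeR adjusted p = 0.0468). The spread of the Naive libraries, 33.8 CPM, was wider than that of the OFBI libraries, 8.05 CPM (SD, n = 3). Prdx2 overlaps Rnaseh2a and Junb on the opposite strand and shares 17.4% of its windows with other genes. It is abundant in red blood cells, and the summed level of 7 erythroid markers was 61.5 to 76.4 CPM in the Naive and 13.1 to 27.5 CPM in the OFBI libraries, of which Hba-a1 alone was called lower (log2 FC -1.85 ± 0.38, edgeR adjusted p = 0.0233). The part of red cell RNA in the Prdx2 result was not tested. Prdx5, found in mitochondria, peroxisomes and cytosol, had 330, 340 and 360 CPM in the Naive and 446, 546 and 424 CPM in the OFBI libraries. All OFBI libraries lay above all Naive libraries, but the log2 FC of 0.46 ± 0.14 did not pass (edgeR adjusted p = 0.0602). Without OFBI replicate 3 it was 0.52 and passed (edgeR adjusted p = 0.0296), and on all libraries DESeq2 and limma-voom called it (adjusted p = 0.00328 and 0.0438). Prdx5 shares 28.2% of its windows with Trmt112, which overlaps it on the opposite strand. Prdx1, Prdx3 and Prdx6 had log2 FCs of -0.68 ± 0.38, -0.74 ± 0.47 and -0.27 ± 0.17, and Prdx4, at 4.55 ± 0.913 CPM in Naive corneas (SD, n = 3), one of 0.14 ± 0.71.

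Of the superoxide dismutases and catalase none was called by edgeR. Sod1, the cytosolic copper-zinc enzyme, had 35.1, 34.7 and 30.5 CPM in the Naive and 47.6, 43.5 and 65.5 CPM in the OFBI libraries, without overlap, and a log2 FC of 0.63 ± 0.22 (edgeR adjusted p = 0.0972). DESeq2 on all libraries called it higher (adjusted p = 0.0293) and limma-voom did not (adjusted p = 0.158). Sod2, the mitochondrial manganese enzyme, had 119, 112 and 99.6 CPM in the Naive and 81.0, 118 and 56.1 CPM in the OFBI libraries, which overlapped (log2 FC -0.36 ± 0.26). Sod3, the extracellular form, had 33.3 ± 5.22 and 33.6 ± 21.9 CPM (SD, n = 3), with OFBI replicate 3 at 58.9 CPM and the other OFBI libraries at 21.02 and 20.8 CPM. Cat, which encodes catalase, had 45.1 ± 3.06 and 41.8 ± 6.26 CPM (SD, n = 3) and a log2 FC of -0.12 ± 0.20.

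Ferritin stores iron and so keeps it from producing radicals. Fth1, the heavy chain with ferroxidase activity, had 668, 781 and 709 CPM in the Naive and 630, 468 and 720 CPM in the OFBI libraries, and Ftl1, the light chain, 97.4, 142 and 151 CPM and 142, 118 and 171 CPM. Both overlapped between the groups, with log2 FCs of -0.25 ± 0.18 and 0.14 ± 0.22. The ratio of Fth1 to Ftl1 counts was 4.71 to 6.86 in the Naive and 3.95 to 4.45 in the OFBI libraries (exact permutation p = 0.1). Ftl1 shares 84.8% of its windows with other genes, mostly the pseudogene Ftl1-ps1, and its counts are uncertain for that reason.

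The metallothioneins, small cysteine-rich proteins that bind zinc and copper, both fell. Mt2 (chromosome 8, 94172664 to 94173568) had 115, 134 and 106 CPM in the Naive and 55.0, 31.1 and 29.9 CPM in the OFBI libraries. The groups were far apart, and the level fell 3.01-fold, with a log2 FC of -1.59 ± 0.27 (edgeR adjusted p = 0.0152). Mt1 (chromosome 8, 94179082 to 94180327) had 73.0, 89.9 and 82.5 CPM in the Naive and 53.5, 58.9 and 50.5 CPM in the OFBI libraries, also without overlap, a 1.502-fold fall with a log2 FC of -0.59 ± 0.17 (edgeR adjusted p = 0.04996). The ratio of Mt2 to Mt1 counts was 1.58, 1.49 and 1.28 in the Naive and 1.03, 0.527 and 0.593 in the OFBI libraries, without overlap (exact permutation p = 0.1). Mt2 shares 32.3% of its windows with Gm45774 on the opposite strand, and whether counting used the strand is not given in the sources used here.

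**Figure D4:**
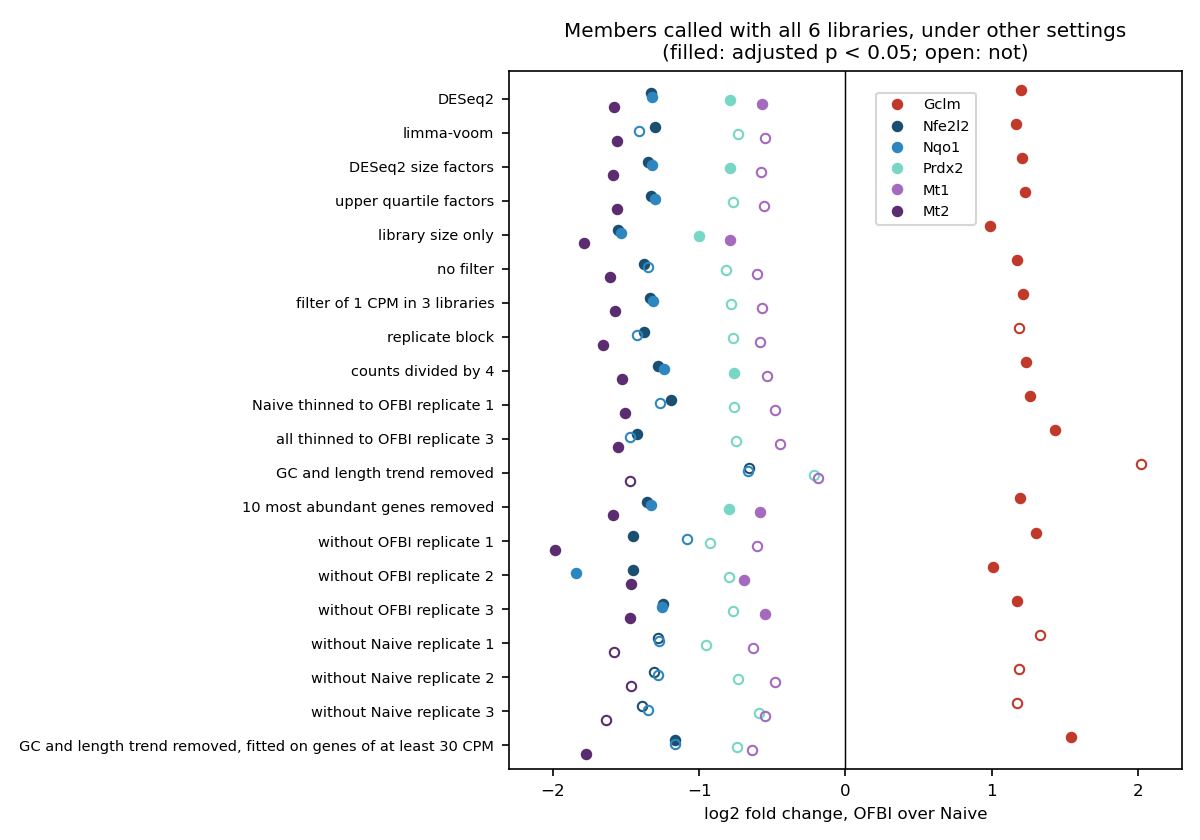
Log2 fold change of the 6 called genes (horizontal) under each alternative setting (vertical), filled where the adjusted p was below 0.05 and open where it was not. Each gene kept its side of 0 in every setting drawn. Gclm, Nfe2l2 and Mt2 are filled in most settings drawn and Nqo1, Prdx2 and Mt1 in fewer.

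The 6 calls differed in how firmly they stood. On all 6 libraries limma-voom called Gclm, Nfe2l2 and Mt2 and not Nqo1, Prdx2 or Mt1 (adjusted p = 0.0627, 0.189 and 0.145). Without Naive replicate 1, 2 or 3 none of the 37 genes passed the edgeR test, where it called 97, 0 and 96 genes higher and 9, 0 and 8 lower in all. The adjusted p-values of Gclm were then 0.0619, 0.0932 and 0.0853, those of Nfe2l2 were 0.0644, 0.0769 and 0.0605 and those of Mt2 were 0.0698, 0.0850 and 0.0694. DESeq2 and limma-voom called Gclm, Nfe2l2 and Mt2 without each of the Naive libraries, with adjusted p-values of at most 0.0294. Limma-voom called Gclm alone of these 3 without OFBI replicate 1, with adjusted p-values of 0.0866 for Nfe2l2 and 0.0541 for Mt2, and none of them without OFBI replicate 2, with 0.0846 for Gclm, 0.0747 for Nfe2l2 and 0.0942 for Mt2. The edgeR test called all 3 without each OFBI library. Nqo1 passed in none of the 6 DESeq2 and limma-voom fits without a Naive library (adjusted p-values of 0.0645 to 0.139). Prdx2 passed in 2 of them and Mt1 in 1. Without OFBI replicate 1, Nqo1, Prdx2 and Mt1 did not pass either (edgeR adjusted p = 0.0763, 0.0707 and 0.0916), and Prdx2 did not pass without OFBI replicate 2 or 3 (edgeR adjusted p = 0.0875 and 0.0641). Removing a trend over GC content and transcript length in each library left no gene of any kind called, moved Nfe2l2 to -0.66, Nqo1 to -0.67, Prdx2 to -0.22, Mt1 to -0.19 and Gclm to 2.02, and left Mt2 at -1.47. The trend removed in that fit was not centred on 0 in each library, so it also changed the scaling between libraries. The median log2 FC of all genes tested moved from -0.20 to 0.17 with it. With the trend fitted on genes of at least 30 CPM only and centred on 0, Gclm, Nfe2l2 and Mt2 passed at 1.54, -1.17 and -1.78 (edgeR adjusted p = 0.0112, 0.0185 and 0.0170). These fits therefore differ in more than the genes used.

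Around these genes, 8 further lists of the pathway were examined, to be read against the 8.41% of all genes called higher and 10.4% called lower. Of 11 genes around NRF2 (small MAF partners, related factors, KEAP1 ligase subunits and other regulators), 2 rose and none fell. The small MAF genes Mafg, Maff and Mafk were not called. The ligase genes Cul3 at 0.50 ± 0.19 and Rbx1 at -0.88 ± 0.25 did not pass either (edgeR adjusted p = 0.111 and 0.0501). Bach2, the gene of a repressor that also pairs with small MAF proteins, rose from 15.1 ± 1.99 to 42.0 ± 4.73 CPM (SD, n = 3), and Nfe2l1, the gene of the related factor NRF1, rose from 144 ± 61.8 to 308 ± 36.5 CPM (SD, n = 3), with log2 FCs of 1.48 ± 0.24 and 1.10 ± 0.29 (edgeR adjusted p = 0.0139 and 0.0428). None of 8 genes of NADPH supply was called, with Me1 (malic enzyme) at -1.02 and Idh1 at -0.99 (edgeR adjusted p = 0.0513 and 0.0992). Of 14 other NRF2 targets tested, 3 fell and none rose, namely Esd at -0.92 ± 0.18, Slc48a1, a haem transporter, falling from 56.4 ± 5.35 to 28.2 ± 4.54 CPM (SD, n = 3), and the drug exporter gene Abcc4, named after its values were seen, at -0.92 ± 0.23.

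Of 30 other glutathione enzymes tested, 6 were called lower and none higher, and 2 of the 6 lay under the limit of detection given below. Among them Gpx8 stood at 7.55 ± 0.541 CPM in the Naive libraries (SD, n = 3) and at 8 counts summed over the OFBI libraries, so that the Naive level was 7.04 times the OFBI level with an exact 95% interval of 1.93 to 58.4 for counting error. Gstm7 and Gstm6 were at 0 in all OFBI libraries, but their Naive levels of 1.19 and 0.571 CPM lay under 1.62 CPM, which is what 3 fragments across the 3 OFBI libraries would give, so their difference was not detectable at this depth. The other genes called lower were Hpgds at -1.52 ± 0.38, Chac1, a glutathione-degrading enzyme, at -1.07 ± 0.30 and Glrx3 at -0.88 ± 0.21, all 3 named after their values were seen. Of 15 other thioredoxin and methionine sulfoxide enzymes, 2 rose and none fell. They were Nxn, nucleoredoxin, at 0.66 ± 0.14 and Txn2, the mitochondrial thioredoxin, at 0.82 ± 0.19 (edgeR adjusted p = 0.0253 and 0.0321).

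None of 14 genes of iron and haem handling passed. Ireb2, an iron sensor, was at -0.55 ± 0.20 (edgeR adjusted p = 0.1003), and Slc40a1, the iron exporter ferroportin, had no count in any OFBI library, and its Naive level of 0.904 CPM lay under the same limit. Of 8 metal-responsive genes tested, 1 fell and none rose. It was Atox1, a copper chaperone, at -0.90 ± 0.23 (edgeR adjusted p = 0.0377), while the copper importer Slc31a1 was at -0.84 ± 0.33 and did not pass. Among 11 oxidant sources tested, Cyba, the p22phox subunit of NADPH oxidases, rose from 4.09 ± 0.271 to 21.5 ± 13.0 CPM (SD, n = 3), a log2 FC of 2.35 ± 0.52 (edgeR adjusted p = 0.0267). Maob was called lower, with no OFBI count, but its Naive level of 1.45 CPM again lay under the limit.

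The cell types in the libraries also moved with group. Summed over 8 corneal epithelium markers, among them the cornea-specific keratin gene Krt12, the level was 33275 to 34642 CPM in the Naive and 63298 to 81304 CPM in the OFBI libraries, and over 8 keratocyte markers 1248 to 1807 and 4572 to 6560 CPM. The keratin genes Krt12, Krt14, Krt15 and Krt5 were called higher. The keratocyte sum was carried by the collagens Col1a1, Col1a2 and Col5a1, which were called higher and are not particular to keratocytes. The other 5 keratocyte markers had negative log2 FCs, Dcn was called lower at -1.46, and the median of the list was -0.78. Kera, a proteoglycan gene typical of keratocytes, had 456 to 597 counts in the Naive libraries, which were deeper. In OFBI replicates 1, 2 and 3 it had 0, 20 and 0 counts. Lum had 23, 57 and 4, Angptl7 56, 79 and 0, and Dcn 111, 191 and 33. The floor of 3 fragments was 10.2 CPM in OFBI replicate 3 before TMM scaling. The Naive mean of Kera was 10.8 CPM, so its 0 in that library lay near the limit of detection. Those of Lum and Angptl7 were 17.3 and 26.5 CPM. In a pooled tissue, fewer cells of a type and less RNA per cell cannot be told apart. Of markers of other tissues, higher calls were made for 7 of 9 tested in hepatocytes, 5 of 9 in cardiomyocytes and 2 of 4 in kidney tubule. They were also made for 6 of 7 in lymphocytes, 3 of 9 in macrophages (C1qa, C1qb and C1qc) and 2 of 10 in skeletal muscle (Myh2 and Tnni2). Of all genes, 8.41% were called higher. The lists held 20 hepatocyte, 11 cardiomyocyte and 8 kidney tubule markers, and the filter on low counts removed those not tested. Some markers passed that filter only through their OFBI counts, such as Fgg, Mup20 and Slc34a1, with Naive means of 0.0955, 0.0575 and 0 CPM. These shares were therefore partly set by the filter and do not compare with the 8.41%. Lower calls were made for Cubn in kidney tubule, Myh4 in skeletal muscle, Gad1 in brain neurons and Slc4a11 and Col8a1 in corneal endothelium. The macrophage markers did not move together. Cd68, at -1.46 ± 0.48 (edgeR adjusted p = 0.0773), Cd163 and Mrc1 had negative log2 FCs and were not called. Adgre1, Csf1r and Lyz2 had positive log2 FCs and were not called either. The hepatocyte sum was 31.8 to 44.7 CPM in the Naive libraries and 189, 206 and 1216 CPM in OFBI replicates 1, 2 and 3, with Alb at 269 ± 326 and Ttr at 43.3 ± 14.0 CPM (SD, n = 3) in OFBI corneas. The cardiomyocyte sum (Myh6 and Tnnt2 the most abundant) was 19.3 to 24.1 and 29.1 to 237 CPM, the kidney tubule sum (Aqp2 and Kap) 8.95 to 10.7 and 17.9 to 60.9 CPM, and the lymphocyte sum (Cd2 and Lck) 5.53 to 7.29 and 31.1 to 238 CPM. Adipocyte markers (Car3 and Lep) summed to 133 to 182 and 18.9 to 58.0 CPM and were nearly all Car3 (called lower), and erythroid markers were led by Hba-a1 and Hba-a2. Sums were 354 to 364 and 287 to 398 CPM for skeletal muscle (Atp2a1 and Myh1), 28.5 to 32.3 and 27.1 to 37.7 CPM for brain neurons (Slc17a7 and Syt1) and 1147 to 1162 and 1077 to 1117 CPM for corneal endothelium, and macrophage markers (Lyz2 and C1qc) summed to 92.7 to 93.9 and 116 to 156 CPM. Umod, Slc12a1, Nppb, Ms4a1, Cd79a, Adipoq, Cfd, Plin1, Cidec, Lep, Slc4a1, Gad1, Stmn2 and Cd163 were at 0 in all OFBI libraries, but their Naive levels lay under 1.62 CPM, so no fall was detectable, while Cubn was at 0 with a Naive level of 2.01 ± 0.216 CPM (SD, n = 3). Mitochondrially encoded RNA summed to 3602 to 4079 CPM in the Naive and 2041, 1585 and 3851 CPM in OFBI replicates 1, 2 and 3. Single genes nearly dropped out of single libraries, so these sums are not evenly comparable. The mt-Nd4 counts were 18998, 17932 and 11 in Naive replicates 1, 2 and 3. In OFBI replicates 1, 2 and 3 mt-Cytb had 1044, 686 and 0 counts and mt-Atp6 had 1, 244 and 285. Liver and kidney express many antioxidant genes, and the part of these other tissues in the antioxidant values was not tested. Without OFBI replicate 3, Gclm, Nfe2l2 and Mt2 had log2 FCs of 1.17, -1.25 and -1.47 and passed (edgeR adjusted p = 0.0128, 0.00527 and 0.0128). OFBI replicates 1 and 2, which stayed in that fit, also had hepatocyte sums above all Naive libraries. That fit therefore does not test the part of other tissues.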

How the data were processed

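RNA-seq libraries were made from pooled corneas with a stranded kit, per the labels' protocols. The tools listed in the submitters' processing notes are HISAT2, StringTie, DESeq2 and FastQC, and the build is GRCm38, without roles or versions. For each library the authors deposited a table of estimated counts per gene, whole numbers not scaled for depth, with 22040 rows each. Rows sharing a symbol were summed (64 rows, 31 symbols).

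The main test used edgeR 4.0.16 (R 4.3.3) with filterByExpr, TMM, a quasi-likelihood fit on group over all 6 libraries and Benjamini-Hochberg adjustment, two-sided. DESeq2 1.42.0 and limma-voom (limma 3.58.1) were alternatives, as were other scalings, filters, thinning, a GC and length correction and leaving out each library. The procedure was also run on simulated counts with known fold changes. These had the same spread beyond counting error in both groups and no grouping of counts by fragment. They therefore do not test it at the wider spread of the OFBI libraries. The members and lists were chosen with earlier results of these data known. Values per library are given for called genes and for the 2 with the smallest p in each role, and the 2 with the smallest p in each pathway list are named. Replicate libraries differed by more than sampling noise (mean chi-square per gene, on counts divided by 4, of 4.43 to 15.4) and counted as separate. P-values measure the spread between these pools. Some marker genes are not reported by name here.

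Gene coordinates and transcript lengths are those of GENCODE mouse release 21 (GRCm38), which matched 21710 of the 22007 symbols. Levels per kilobase use the median length of protein-coding transcripts. Shared 75-base windows were counted on the longest protein-coding transcript. The floor of 3 fragments is 12 deposited counts, at 4 counts per fragment, and intervals and floors cover counting error only.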

Additional observations from a re-analysis of the deposited data

How the results depend on the processing

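With all 6 libraries, 1173 genes were higher and 1446 lower, among the 37 antioxidant genes 1 and 5. DESeq2 called 1905 higher and 1796 lower in all, and 3 and 8 antioxidant genes. Counts of antioxidant genes higher and lower were 2 and 3 with limma-voom (1019 and 1248 of 13941 in all). They were also 2 and 3 with upper quartile factors (1231 and 1401 of 13941 in all). They were 1 and 3 with at least 1 CPM in 3 libraries (1172 and 1088 of 13197 in all). With counts divided by 4 they were 2 and 6 (1571 and 1297 of 12501 in all). With Naive libraries thinned they were 2 and 2 (1076 and 562 of 11704 in all). With all libraries thinned only 32 of the 37 genes passed the filter, and 1 and 2 were called (906 and 427 of 9720 in all). The counts were 1 and 2 without a filter (943 and 910 of 16934 in all), and 0 and 0 at a threshold of 0.01 (191 and 31 in all). With the GC and length trend removed, edgeR called 0 genes, with 2358 higher and 1472 lower at an unadjusted p below 0.05 (4 and 3 antioxidant genes), and the median of all genes moved from -0.20 to 0.17. With the trend fitted on genes of at least 30 CPM and centred on 0, edgeR called 929 and 1149 genes, of them 1 and 2 antioxidant genes. This alternative was chosen after seeing the data. So were those that combine DESeq2 or limma-voom with a left-out library, and the block with the GC trend. With library size only, 866 and 2038 genes were called, the split moved towards lower calls, and the median of all genes was -0.40. Leaving out each library in turn, edgeR called 0 to 1611 higher and 0 to 2065 lower, and 0 to 2 and 0 to 8 antioxidant genes. Without Naive replicate 2 it called 0, with 1444 higher and 997 lower at an unadjusted p below 0.05, where DESeq2 called 1030 and 495 and limma-voom 1037 and 529. DESeq2 called 2058, 2294 and 2424 higher and 2478, 2879 and 2719 lower without OFBI replicate 1, 2 and 3, with 3, 6 and 5 antioxidant genes higher and 8, 10 and 11 lower. It called 665 and 613 lower without Naive replicate 1 and 3, and limma-voom 776 and 691. Limma-voom called 622 higher without OFBI replicate 1. The replicate numbers did not pair the libraries (correlations of same-numbered deviations of -0.0027, -0.0175 and 0.0078). With a replicate block, 540 genes were higher and 253 lower, and 0 and 2 antioxidant genes, Nfe2l2 and Mt2, while Gclm had an edgeR adjusted p of 0.0509. With the block and the GC trend removed, 322 and 25 genes were called, among them Gclm and Mt2. With DESeq2, Gpx1 changed from 0.0099 on all libraries to 0.51 without OFBI replicate 2 (DESeq2 adjusted p = 0.0351). Low OFBI depth limits genes of few counts, such as Hmox1, Slc7a11, Prdx4, Gstm5 and Mgst1.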
